A study of Danio rerio with 10 samples.

Results

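The genes described here are 9 transcription factors and co-repressors of the presomitic mesoderm and of the somites it forms, taken as a fixed list of symbols: msgn1, tbx16, tbx6, mespaa, mespba, ripply1, ripply2, tcf15 and meox1. All 9 were found among the 14650 genes of the count table, and all 9 passed the filter on low counts that left 11871 genes for testing. They were read in whole zebrafish embryos of the 17 to 18 somite stage, kept at 28 °C, in 5 libraries of a tpcn2 mutant line (labelled TPC2 mutant) and 5 libraries of wild type of the ABTU strain, called biological replicates in the series' design text. The series sets the genotypes side by side to study development of the trunk. The mutant allele, its zygosity and its strain background, the number of embryos per sample and whether the groups came from the same clutches are not stated in the labels. A difference between the groups therefore cannot be told apart from one of strain background, clutch or exact age. The p-values set the difference between the groups against the spread between these samples only. The tpcn2 product, two-pore channel 2, sits in endosome and lysosome membranes and releases calcium.

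In the fish embryo the presomitic mesoderm is laid down by the tailbud and is cut into somites, a pair at a time, at its anterior end. T-box and bHLH factors first give tailbud cells a paraxial mesoderm fate. In the anterior presomitic mesoderm, Tbx6 turns on the mesp and ripply genes, Mesp factors mark the anterior part of the next somite, and Ripply proteins, which bring Groucho co-repressors to T-box factors, end the presomitic programme. Formed somites keep tcf15 and meox1. At the stage sampled all of these steps run side by side along one embryo, so a whole-embryo library holds them together with every other tissue.

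Total counts were 17890367 to 21699665 in the mutant libraries and 18616906 to 22498643 in the wild-type libraries. Levels are given as CPM, the counts of a gene scaled to a fixed total per library with TMM factors. tpcn2 averaged 9.28 ± 1.56 CPM in mutant embryos and 58.0 ± 14.0 CPM in wild-type embryos (SD, n = 5 each), a log2 fold change of -2.64 ± 0.186 (SE; edgeR adjusted p = 3.19e-08). All 7 sets of marker genes fixed for other tissues were detected, with 0 markers lacking reads. The summed level of the 5 notochord markers was 754 to 818 CPM in mutant embryos and 507 to 677 CPM in wild-type embryos, without overlap. The sums did not overlap either for 4 endothelial markers, at 139 to 165 CPM in mutant embryos and 114 to 133 CPM in wild-type embryos, for 4 neural crest markers, at 228 to 250.3 CPM in mutant embryos and 255 to 283 CPM in wild-type embryos, and for 4 blood markers, at 100.4 to 124.7 CPM in mutant embryos and 124.7 to 152 CPM in wild-type embryos, where the nearest values differed by less than the rounding. They overlapped for 5 muscle markers, at 2723 to 3200 CPM in mutant embryos and 2755 to 3735 CPM in wild-type embryos, although acta1a and acta1b fell among these, and for 6 neural tube markers, at 871 to 1019 CPM in mutant embryos and 954 to 1173 CPM in wild-type embryos. The 4 epidermal markers summed to 30529 to 34285 CPM in mutant embryos and 30330 to 35651 CPM in wild-type embryos. Of these cyt1 fell, at 1115 ± 106 CPM in mutant embryos and 1875 ± 155 CPM in wild-type embryos (SD, n = 5 each; edgeR adjusted p = 1.69e-06). krt4, which averaged 28882 CPM in mutant embryos and 28865 CPM in wild-type embryos, did not pass, nor did tp63 and krt5. The members of a sum did not always move together. Of the blood markers hbbe1.1 and hbbe3 fell, alas2 rose (edgeR adjusted p = 0.0264) and gata1a did not pass (edgeR adjusted p = 0.806). Of the endothelial markers kdr alone was called, at 65.5 CPM in mutant embryos and 36.6 CPM in wild-type embryos (means). kdrl, fli1a and cdh5 did not pass. In bulk samples, fewer cells of a type and less RNA per cell cannot be told apart.

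Of the 9 genes, 2 rose and 0 fell in the mutant. The T-box gene tbx16 rose to 1.27 times and the homeobox gene meox1 to 1.26 times the wild-type level, and the other 7 genes did not pass the test (edgeR's quasi-likelihood test, adjusted p under 0.05 over all tested genes). Over all tested genes 42.2% were called, 20.6% higher and 21.6% lower. The share called among the 9 genes was 22.2%, a difference of few genes that was not tested. At an unadjusted p under 0.05 the same 2 genes rose and 0 fell. Of all 11871 tested genes 2951 rose and 3037 fell at that threshold. DESeq2 and limma-voom each called 2 of the 9 genes higher and 0 lower. Over all tested genes DESeq2 called 2593 higher and 2641 lower, and limma-voom 2510 higher and 2541 lower. The groups overlapped for every one of the 9 genes, whereas they did not overlap for 28.7% of the genes tested (13.7% with the mutant higher and 15% with the mutant lower). The median log2 fold change of the 9 genes was 0.09, against -0.001 for all tested genes, and their median absolute log2 fold change was 0.25 against 0.22.

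**Figure D1:**
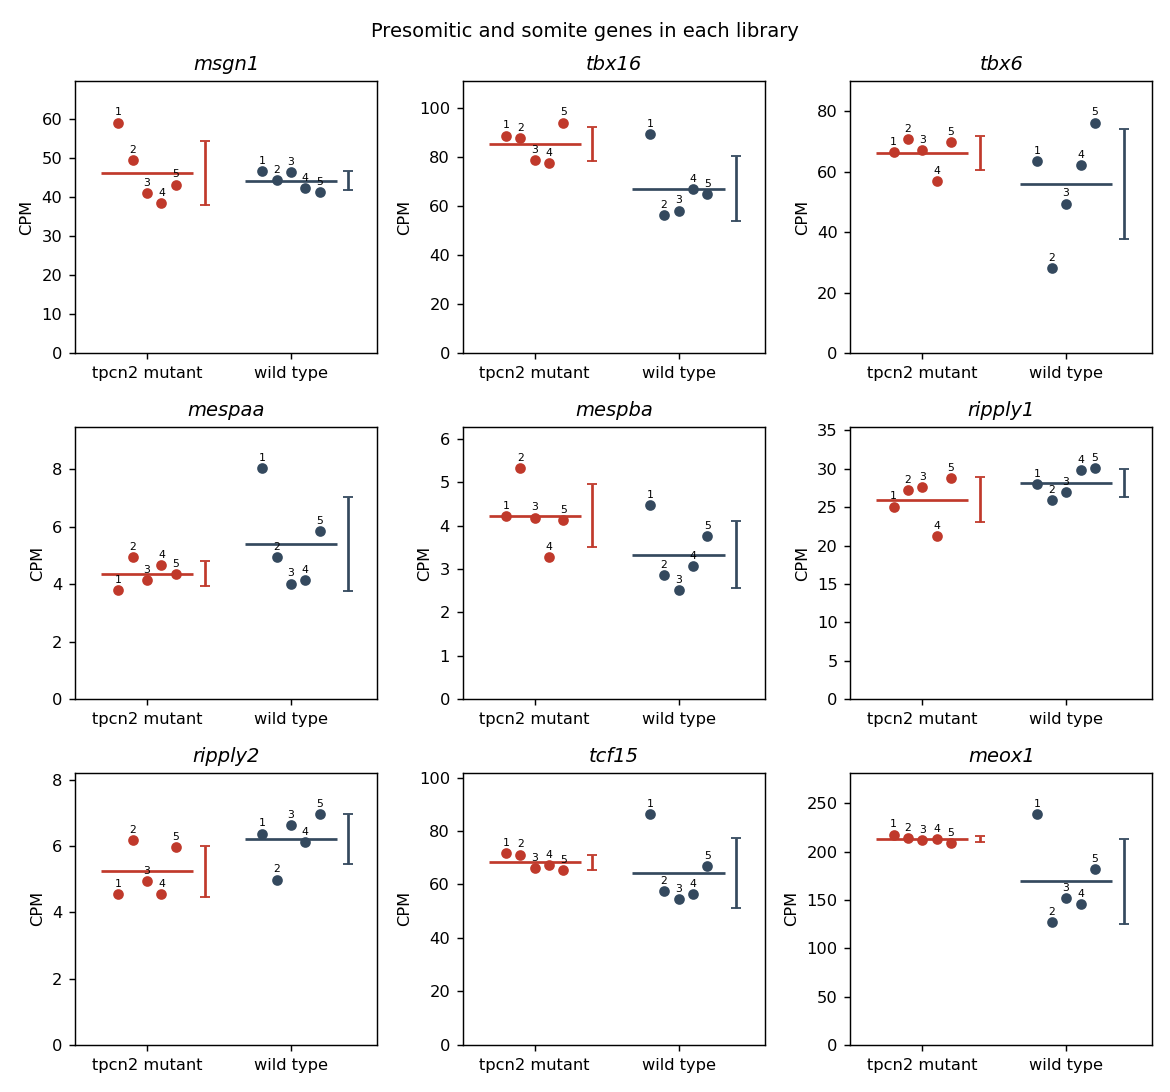
Level (CPM, vertical axes from 0) of the 9 genes in each library, numbered by replicate, with the tpcn2 mutant left of wild type; horizontal lines are group means and bars are SD (n = 5). The mutant meox1 points lie between 209 and 218 CPM, while the wild-type points run between 127 and 239 CPM.

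The genes of the posterior presomitic mesoderm are msgn1 and tbx16. msgn1 encodes mesogenin, a bHLH factor with which cells leave the tailbud progenitor state and become presomitic mesoderm. It stood at 59.0, 49.3, 41.0, 38.5 and 43.2 CPM in mutant replicates 1 to 5 and at 46.7, 44.3, 46.3, 42.2 and 41.2 CPM in wild-type replicates 1 to 5. The mutant libraries bracketed the wild-type ones, with 2 above the highest and 2 below the lowest wild-type library. The means were 46.2 ± 8.22 CPM in mutant embryos and 44.1 ± 2.44 CPM in wild-type embryos (SD, n = 5 each), a log2 fold change of 0.07 ± 0.115 (SE) that did not pass (edgeR adjusted p = 0.63). limma-voom gave a 95% interval of -0.16 to 0.26 for this difference. The sign of the msgn1 difference rested on mutant replicate 1, without which the log2 fold change was -0.04 (edgeR adjusted p = 0.757).

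tbx16, the gene of the spadetail mutant, is a T-box factor that trunk paraxial mesoderm needs in order to form. Its level was 88.7, 87.8, 78.8, 77.4 and 94.0 CPM in mutant replicates 1 to 5 and 89.2, 56.4, 58.1, 66.9 and 64.8 CPM in wild-type replicates 1 to 5. Each of the 4 wild-type libraries other than replicate 1 lay below the lowest mutant library, and wild-type replicate 1 lay within the mutant range. The means were 85.3 ± 7.03 CPM in mutant embryos and 67.1 ± 13.1 CPM in wild-type embryos (SD, n = 5 each), a log2 fold change of 0.35 ± 0.129 (SE; edgeR adjusted p = 0.017). Permuting the library labels (exact, two-sided) gave p = 0.0397, where 5 against 5 libraries can reach 0.00794. In the authors' deposited table tbx16 had a log2 fold change of 0.34 with an adjusted p of 0.00646. Among the marker sums above that did not overlap between the groups, those of notochord and endothelium were higher in the mutant, as tbx16 was. Those of neural crest and blood were lower. Among the endothelial markers kdr alone was called. All 5 notochord markers were called higher by edgeR, but noto, shha and ta (tbxta) overlapped between the groups when taken singly. The part of these tissues in the result was not tested.

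In the anterior presomitic mesoderm the T-box gene is tbx6, which belongs to the fused somites locus and is also called tbx24; the count table lists tbx6l, a different T-box gene, separately. tbx6 stood at 66.5, 70.7, 67.2, 56.9 and 69.9 CPM in mutant replicates 1 to 5 and at 63.4, 28.2, 49.5, 62.2 and 76.3 CPM in wild-type replicates 1 to 5. The wild-type libraries spread over a 2.7-fold range, with replicate 2 lowest and replicate 5 highest, and the mutant libraries over a 1.24-fold range inside it. The means were 66.3 ± 5.52 CPM in mutant embryos and 55.9 ± 18.2 CPM in wild-type embryos (SD, n = 5 each). The log2 fold change of 0.24 ± 0.254 (SE) did not pass (edgeR adjusted p = 0.305), and its 95% interval by limma-voom was -0.10 to 0.73, the widest of the 9 genes.

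mespaa and mespba encode bHLH factors switched on in stripes where the next somite boundary will form, and lie side by side with 0 other coding genes between them in the RefSeq order of the GRCz12tu assembly. Both were sparse. mespaa had 431 reads over the mutant libraries and 542 over the wild-type libraries, and mespba had 414 reads over the mutant libraries and 335 over the wild-type libraries.

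mespaa stood at 3.78, 4.93, 4.13, 4.65 and 4.35 CPM in mutant replicates 1 to 5 and at 8.03, 4.95, 4.02, 4.13 and 5.85 CPM in wild-type replicates 1 to 5. Wild-type replicate 1 was the highest, and 3 wild-type libraries in all lay above the highest mutant library. The log2 fold change was -0.30 ± 0.192 (SE; edgeR adjusted p = 0.207; 95% interval by limma-voom -0.65 to 0.14). Without wild-type replicate 1 it was -0.12 (edgeR adjusted p = 0.564).

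mespba stood at 4.22, 5.32, 4.18, 3.27 and 4.13 CPM in mutant replicates 1 to 5 and at 4.47, 2.85, 2.52, 3.06 and 3.75 CPM in wild-type replicates 1 to 5. Here 3 wild-type libraries lay below the lowest mutant library and 1 mutant library above the highest wild-type one. The log2 fold change was 0.34 ± 0.179 (SE), close to that of tbx16, but it did not pass (edgeR adjusted p = 0.149; 95% interval by limma-voom -0.05 to 0.74). Without wild-type replicate 1 it passed, at 0.47 (edgeR adjusted p = 0.0477).

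The duplicate genes of this pair were mespab and mespbb. mespab fell, with 2.72, 3.26, 2.75, 2.16 and 2.79 CPM in mutant replicates 1 to 5 against 4.04, 3.85, 3.91, 3.11 and 3.75 CPM in wild-type replicates 1 to 5, and a log2 fold change of -0.45 ± 0.111 (SE; edgeR adjusted p = 0.031). That call ended in 8 of the 10 fits that left out 1 library. mespbb averaged 3.98 ± 0.552 CPM in mutant embryos and 3.86 ± 1.1 CPM in wild-type embryos (SD, n = 5 each; edgeR adjusted p = 0.896). The mesp genes are close in sequence, and reads may be split among them.

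ripply1 and ripply2 encode the co-repressor adaptors that shut off Tbx6 activity as a somite separates. ripply1 stood at 25.1, 27.3, 27.6, 21.2 and 28.8 CPM in mutant replicates 1 to 5 and at 28.0, 26.0, 27.0, 29.8 and 30.1 CPM in wild-type replicates 1 to 5. Mutant replicate 4 was the lowest of all 10 libraries, and 2 wild-type libraries lay above the highest mutant one. The log2 fold change was -0.12 ± 0.0876 (SE; edgeR adjusted p = 0.300; 95% interval by limma-voom -0.31 to 0.06).

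ripply2 stood at 4.56, 6.18, 4.95, 4.56 and 5.97 CPM in mutant replicates 1 to 5 and at 6.38, 5.00, 6.64, 6.12 and 6.97 CPM in wild-type replicates 1 to 5. Of the mutant libraries 3 lay below the lowest wild-type library, and 3 wild-type libraries lay above the highest mutant one. The log2 fold change was -0.25 ± 0.123 (SE) and did not pass (edgeR adjusted p = 0.166; 95% interval by limma-voom -0.55 to 0.05; exact two-sided permutation p = 0.0635). The third gene of the family, ripply3, which is known for its part in pharyngeal development, fell: it stood at 6.28, 5.41, 6.22, 6.31 and 6.30 CPM in mutant replicates 1 to 5 against 8.77, 10.5, 10.7, 9.33 and 9.47 CPM in wild-type replicates 1 to 5, and the groups did not overlap. Its log2 fold change was -0.67 ± 0.0672 (SE; edgeR adjusted p = 1.46e-04).

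The somite genes were tcf15 and meox1. tcf15 encodes paraxis, a bHLH factor known in the mouse for the epithelial form of somites. It stood at 71.6, 71.1, 66.2, 67.3 and 65.4 CPM in mutant replicates 1 to 5 and at 86.3, 57.6, 54.6, 56.5 and 67.0 CPM in wild-type replicates 1 to 5. The mutant libraries lay between the highest wild-type library and the 3 lowest. The log2 fold change was 0.09 ± 0.125 (SE; edgeR adjusted p = 0.541; 95% interval by limma-voom -0.11 to 0.32). Without wild-type replicate 1 it was 0.21 and passed (edgeR adjusted p = 0.0158).

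meox1, mutated in the choker line, is a homeobox gene of somites and their derivatives. It stood at 218, 214, 212, 213 and 209 CPM in mutant replicates 1 to 5 and at 239, 127, 152, 146 and 182 CPM in wild-type replicates 1 to 5. As for tbx16, 4 wild-type libraries lay below every mutant library; wild-type replicate 1 lay above them all. The means were 213 ± 3.30 CPM in mutant embryos and 169 ± 43.6 CPM in wild-type embryos (SD, n = 5 each), and the log2 fold change was 0.33 ± 0.157 (SE; edgeR adjusted p = 0.0439; exact two-sided permutation p = 0.0476). The call was close to the threshold and ended in 9 of the 10 fits that left out 1 library, where the adjusted p reached 0.1; without wild-type replicate 1 the log2 fold change was 0.49 (edgeR adjusted p = 1.4e-04). The authors' deposited table gave meox1 a log2 fold change of 0.32 and an adjusted p of 0.0249, and called tbx16 and meox1 alone among the 9 genes at 0.05.

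**Figure D2:**
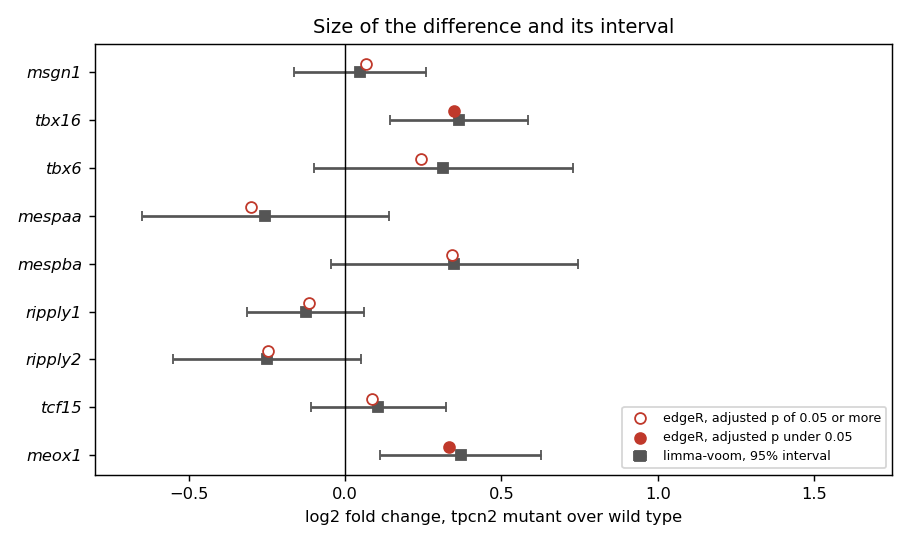
Log2 fold change (tpcn2 mutant over wild type, horizontal axis) of each gene: circles are edgeR estimates, filled where the adjusted p was under 0.05, and squares with bars are limma-voom estimates with their 95% intervals. The intervals of tbx16 (0.14 to 0.58) and meox1 (0.11 to 0.63) lie above 0, and those of the other 7 genes include 0.

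The genes differed in how far libraries of one group lay apart. meox1 had a coefficient of variation of 1.55% between mutant libraries, equal to the 1.55% that counting error alone gives at its depth, and 25.8% between wild-type libraries, where counting alone gives 1.72%. Of all tested genes, 0.783% had a smaller coefficient of variation between mutant libraries than meox1, and 84.8% a smaller one between wild-type libraries. For tcf15 the values were 4.2% in the mutant and 20.4% in wild type, for tbx6 8.33% in the mutant and 32.5% in wild type, and for tbx16 8.24% in the mutant and 19.6% in wild type. mespaa and mespba varied more between wild-type libraries too, with 10.3% in the mutant and 30.5% in wild type for mespaa. The order was the other way for msgn1, with 17.8% in the mutant and 5.53% in wild type, for ripply1, with 11.5% in the mutant and 6.27% in wild type, and for ripply2, with 14.9% in the mutant and 12.1% in wild type. Over all tested genes the median was 8.64% in the mutant and 11.4% in wild type. The difference in spread between the groups was not tested.

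**Figure D3:**
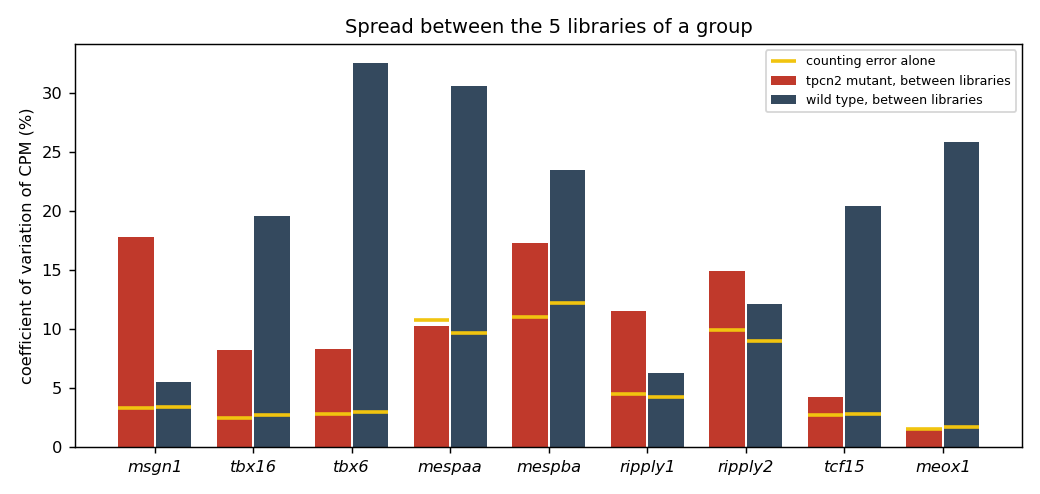
Coefficient of variation of CPM between the 5 libraries of a group (percent, vertical axis from 0), with the tpcn2 mutant left of wild type for each gene; yellow lines mark the value that counting error alone gives. Wild type varied more for 6 genes, by most for meox1 (1.55% in the mutant and 25.8% in wild type), and the mutant varied more for msgn1, ripply1 and ripply2.

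Replicates 1 and 2 were most often at an end of the wild-type range. Wild-type replicate 1 was the highest wild-type library for msgn1, tbx16, mespaa, mespba, tcf15 and meox1, and replicate 2 was the lowest for tbx16, tbx6, ripply1, ripply2 and meox1. The summed level of the 9 genes was 541, 537, 506, 487 and 524 CPM in mutant replicates 1 to 5, against 571, 353, 401, 417 and 478 CPM in wild-type replicates 1 to 5. The largest part of this sum, which was not corrected for gene length, was meox1, with means of 213 CPM in mutant embryos and 169 CPM in wild-type embryos. Without wild-type replicate 1, 4 of the 9 genes were called higher (tbx16, mespba, tcf15 and meox1) and 0 lower. Without any one of the other 9 libraries 1 gene, tbx16, was called higher. These counts were not set against the share of all tested genes called in the same fits.

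Ratios of reads between 2 genes of the same library do not depend on its scaling. mespba had 1.12, 1.08, 1.01, 0.703 and 0.949 reads per mespaa read in mutant replicates 1 to 5 and 0.556, 0.577, 0.627, 0.741 and 0.641 in wild-type replicates 1 to 5. Mutant replicate 4 and wild-type replicate 4 overlapped, and the other libraries were separated by group. Both genes had few reads, with a coefficient of variation of 9.6 to 12.2% from counting alone, and reads may be split among the mesp genes. meox1 had 3.04, 3.01, 3.2, 3.17 and 3.19 reads per tcf15 read in mutant replicates 1 to 5 and 2.77, 2.21, 2.78, 2.58 and 2.72 in wild-type replicates 1 to 5, with no overlap. The ratio of ripply2 to ripply1 overlapped, at 0.179 to 0.227 in the mutant and 0.192 to 0.246 in wild type. These ratios were chosen after the values were seen and were not tested. Of the 36 pairs among the 9 genes, 6 had ratios that did not overlap between the groups, and of all pairs among tested genes 28.2% did so.

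**Figure D4:**
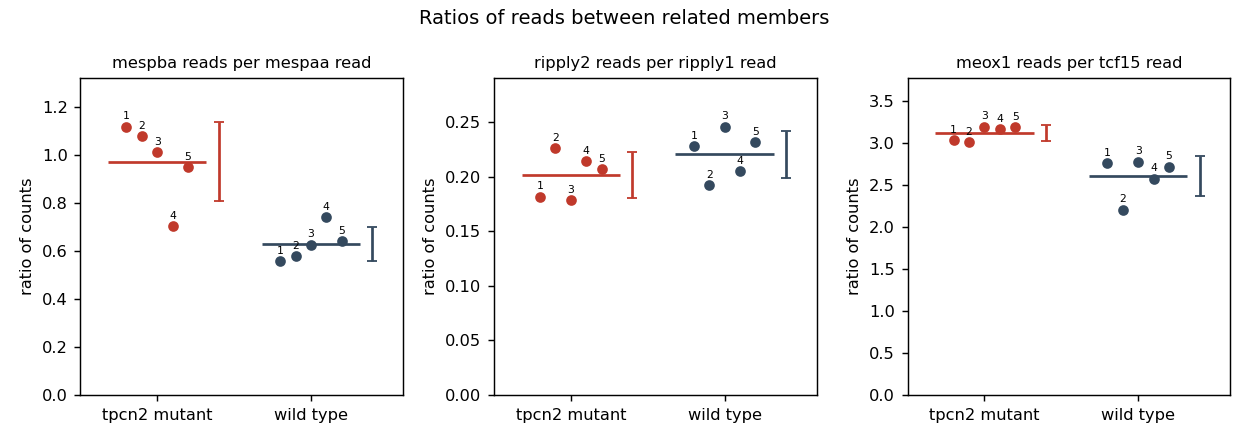
Reads of one gene per read of another in each library (vertical axes from 0), numbered by replicate, with the tpcn2 mutant left of wild type; lines are means and bars are SD (n = 5). The meox1 to tcf15 ratio lies between 3.01 and 3.2 in the mutant and between 2.21 and 2.78 in wild type, and the other 2 ratios overlap.

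Patterns over the 10 libraries were compared as the root mean square difference of log2 CPM, each gene centred on its own mean. Among the 9 genes the closest pair was tbx16 and meox1 (0.13), followed by ripply1 and ripply2 (0.14) and by tcf15 and meox1 (0.16), and the farthest was tbx6 and mespaa (0.48). Among the 11233 other tested genes with a mean of at least 1 CPM, the nearest were zgc:91940 (0.05) and hey1 (0.05) to tcf15, tp53bp1 (0.08) and sall1a (0.08) to tbx16, pan3 (0.08) and riok3 (0.08) to ripply1, and ccdc151 (0.08) and zgc:66433 (0.10) to msgn1. To ripply2 the nearest were p2rx7 (0.09) and lpcat1 (0.10), to mespaa tcf21 (0.10) and her8.2 (0.14), to meox1 ngrn (0.11) and zgc:110091 (0.11), to mespba frem1b (0.14) and arl3l1 (0.15), and to tbx6 the fibronectin gene fn1b (0.18) and zgc:55413 (0.19). These distances describe 10 libraries and carry no test.

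Of 17 tested tailbud and mesoderm progenitor genes 7 rose and 0 fell, or 41.2% called against 42.2% of all tested genes (edgeR; DESeq2 and limma-voom gave the same counts, and 1 gene was lower at an unadjusted p under 0.05), with a median log2 fold change of 0.15 against -0.001 for all tested genes. The direction of the list was not tested. The largest rise was that of sall4, a zinc-finger gene of progenitor cells, at 257 ± 13.3 CPM in mutant embryos and 64.5 ± 32.3 CPM in wild-type embryos (SD, n = 5 each; edgeR adjusted p = 9.68e-05). vent, a homeobox target of Bmp signals, averaged 25.4 ± 1.56 CPM in mutant embryos and 15.7 ± 2.88 CPM in wild-type embryos, and bambia, which encodes a Bmp pseudoreceptor, 127 ± 3.44 CPM in mutant embryos and 99.9 ± 4.41 CPM in wild-type embryos (edgeR adjusted p = 2.66e-04 for vent and 3.87e-05 for bambia). lin28a, an RNA-binding protein gene of early embryos, rose by a log2 fold change of 0.37 ± 0.0648 (SE). The T-box gene tbxta, listed under its older symbol ta and also one of the notochord markers above, averaged 104 ± 6.48 CPM in mutant embryos and 86.0 ± 16.3 CPM in wild-type embryos (log2 fold change 0.28 ± 0.134, SE; edgeR adjusted p = 0.0471), a call lost in 7 of the 10 fits that left out 1 library and with library size as the only scaling. tbx6l, a T-box relative of tbx16, averaged 39.5 ± 5.04 CPM in mutant embryos and 41.4 ± 10.1 CPM in wild-type embryos and did not pass (edgeR adjusted p = 0.749).

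In the clock and Notch list the her genes did not behave alike: her1 and her7 did not pass, whereas her12 and her6 rose and her15.2 fell. her1 averaged 19.2 ± 1.73 CPM in mutant embryos and 19.7 ± 4.42 CPM in wild-type embryos, and her7 17.5 ± 1.66 CPM in mutant embryos and 18.2 ± 1.44 CPM in wild-type embryos (SD, n = 5 each; edgeR adjusted p = 0.837 for her1 and 0.611 for her7). The Notch ligand gene dlc had a log2 fold change of 0.07 ± 0.082 (SE; edgeR adjusted p = 0.45). Of 21 tested genes of this list 4 rose and 3 fell, or 33.3% called against 42.2% of all tested genes, with a median absolute log2 fold change of 0.10 against 0.22. The largest changes were those of nrarpa (-2.67), her12 (2.45) and her15.2 (-1.37), as log2 fold changes. her12 ran from 24.7 to 27.6 CPM in mutant libraries and from 0.957 to 9.53 CPM in wild-type libraries. her12 and her15.2 have close neighbours among which reads may be split. her15.1, also in this list, averaged 44.0 CPM in mutant embryos and 48.3 CPM in wild-type embryos and did not pass (edgeR adjusted p = 0.238).

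Of 21 tested genes of the somite boundary and its matrix 6 rose and 1 fell, or 33.3% called against 42.2% of all tested genes, and their median log2 fold change was 0.14 against -0.001. pcdh8, a protocadherin of the presomitic mesoderm also known as papc, stood at 70.3, 76.3, 64.7, 61.3 and 62.4 CPM in mutant replicates 1 to 5 against 54.1, 42.3, 50.8, 48.6 and 58.1 CPM in wild-type replicates 1 to 5. The groups did not overlap, and its log2 fold change was 0.40 ± 0.0966 (SE; edgeR adjusted p = 0.00176). fn1b, which encodes a fibronectin laid down at somite boundaries, rose by 0.41 ± 0.16 on the log2 scale, and itga5, the gene of a fibronectin receptor subunit, by 0.24 ± 0.0512 (SE; edgeR adjusted p = 0.0132 for fn1b and 0.00258 for itga5). The retinoic acid synthesis gene aldh1a2 fell by 0.47 (log2). epha4a and efnb2a, an Eph receptor and an ephrin of the boundary, had log2 fold changes of 0.01 and 0.07 and did not pass (edgeR adjusted p = 0.941 for epha4a and 0.397 for efnb2a).

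Of 28 tested genes of the somite's compartments 4 rose and 8 fell, or 42.9% called against 42.2% of all tested genes (20.6% higher and 21.6% lower), with a median log2 fold change of -0.12. The direction of the list was not tested. eya1, a co-activator gene of muscle and sensory precursors, averaged 118 ± 5.89 CPM in mutant embryos and 150 ± 4.48 CPM in wild-type embryos, and pax3a, a paired-box gene of the dermomyotome and neural tube, with a log2 fold change of -0.42 ± 0.0661 (SE), fell too (SD, n = 5 each for eya1; edgeR adjusted p = 5.76e-05 for eya1 and 0.00107 for pax3a). fgfr4, an Fgf receptor gene of paraxial mesoderm and muscle precursors, averaged 281 ± 12.6 CPM in mutant embryos and 229 ± 7.47 CPM in wild-type embryos (edgeR adjusted p = 1.17e-04). The largest log2 fold changes of the list were those of pax7b (-0.73), myf5 (0.70) and pax7a (-0.67), each without overlap of the groups. The edgeR adjusted p was 1.92e-04 for pax7b, 5.02e-04 for myf5 and 4.57e-04 for pax7a. uncx4.1 and tbx18, which mark the posterior and the anterior part of each somite, had log2 fold changes of 0.12 ± 0.156 and -0.13 ± 0.107 (SE) and did not pass (edgeR adjusted p = 0.469 for uncx4.1 and 0.349 for tbx18). The groups overlapped for both of these markers. Several genes of this list, pax3a among them, are also expressed in neural tissue or neural crest. Of the 6 neural tube markers sox3, sox19a and sox19b fell (edgeR adjusted p = 0.00483 for sox3, 0.00774 for sox19a and 0.00492 for sox19b). sox2 rose (edgeR adjusted p = 0.0466) but did not pass with DESeq2 (adjusted p = 0.0809). The groups overlapped for each of these neural tube markers. Of the 4 neural crest markers sox10, foxd3 and crestin fell (edgeR adjusted p = 0.0333 for sox10, 0.0278 for foxd3 and 0.00614 for crestin). The part of these tissues in the falls of the compartment genes was not tested.

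**Figure D5:**
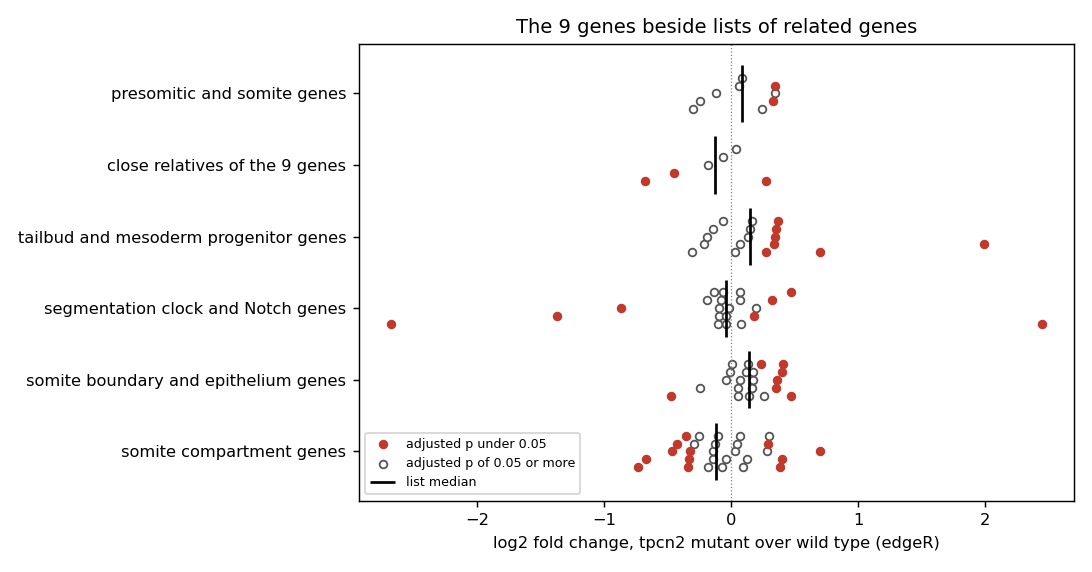
Log2 fold change by edgeR (tpcn2 mutant over wild type, horizontal axis) of the 9 presomitic and somite genes in the top row and of the tested genes of 5 related lists below; filled points had an adjusted p under 0.05 and black bars are list medians. The 9 genes lie between -0.30 and 0.35, while the clock and Notch list runs between -2.67 and 2.45.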

How the data were processed

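The authors' count table gives raw counts for each gene symbol and library. Per the submitters' processing notes, cutadapt 3.4, STAR 2.7 and DESeq2 1.30.0 were used and the builds named are danRer10 and mm10, with no role for either. How reads were counted, on which annotation and with which strand setting is not given in the sources used here, so antisense overlaps cannot be told apart. A second deposited table, the authors' comparison, gives log2 fold changes, p-values, a score (the test statistic) and a signal (mean of counts over size factors), per the file headers; its direction was read from tpcn2.

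Counts were filtered with edgeR's filterByExpr, scaled by TMM and tested with glmQLFit and glmQLFTest (edgeR 4.0.16, R 4.3.3), genotype as the single term, Benjamini-Hochberg adjusted over all tested genes, threshold 0.05. CPM is TMM-scaled; SE is that of the difference of mean log2 CPM (prior count 2). Intervals are 95%, from limma-voom (limma 3.58.1). Exact permutation tests enumerated 252 splits. DESeq2 1.42.0 was an alternative. The pipeline was tested on simulated counts. Replicates differed by more than sampling noise. The chi-square per degree of freedom ran from 5.76 to 9.17 over pairs of mutant libraries and from 8.60 to 30.2 over pairs of wild-type libraries.

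The 9 genes and the lists were chosen with earlier results of these data known. In each list up to 5 called genes per direction, smallest p first, were open to naming, and for each of the 9 genes its 2 nearest patterns; other genes named were chosen after their values were seen. Of 158 symbols asked for, 137 were matched, 6 by a RefSeq synonym. Apart from the ratios of reads, the summed levels and the part of meox1 in the sum of the 9 genes, levels of different genes were not compared. The ratios were read between the groups. None of these values was corrected for gene length. No sequences were used.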

Additional observations from a re-analysis of the deposited data

Results flagged for a closer look

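A library far from the others of its group, by Dixon's criterion for 5 values, was looked for in 80 combinations of gene and group (the 9 genes, tpcn2 and the genes open to naming in the related lists), and 3 were found. Chance flags about 1 in 20 groups, and 0 of the 3 involved any of the 9 genes. ripply3 was at 5.41 CPM in mutant replicate 2, and the rest of its group at 6.22 to 6.31 CPM. notch2 was at 86.0 CPM in wild-type replicate 4, and the rest of its group at 70.5 to 75.0 CPM. myf5 was at 53.8 CPM in mutant replicate 4, and the rest of its group at 63.8 to 65.7 CPM.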

How the results depend on the processing

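The 2 higher and 0 lower calls among the 9 genes were the same under RLE size factors, library size alone, DESeq2, limma-voom, no filter, a mean CPM of at least 1 and the replicate block. Leaving out 1 library gave 1 to 4 higher and 0 lower, not set against the share of all tested genes called in those fits. tbx16 passed in all 17 alternatives (log2 fold change 0.29 to 0.47, adjusted p up to 0.0434). meox1 ran from 0.25 to 0.49 (adjusted p up to 0.1) when 1 library was left out, mespba from 0.24 to 0.47, tcf15 from 0.031 to 0.21 and msgn1 from -0.036 to 0.12; a smaller number of samples and the library left out differ together, and the cause was not tested. In the related lists, of 6 tested relatives of the 9 genes 1 rose and 2 fell in the main fit. That is 50% called against 42.2% of all tested genes. These relatives had 0 higher with library size alone and 0 to 1 higher and 1 to 2 lower with 1 library left out. Somite boundary genes had 2 lower with DESeq2 and with the replicate block and 1 to 2 with 1 library left out, and tailbud genes 0 to 1 lower. With the replicate number as a block tbx16 had 0.36 and meox1 0.37 (log2; adjusted p = 0.00686 for tbx16 and 0.0153 for meox1). Same-numbered libraries did not deviate together (correlations across genes -0.06 to 0.07), so the numbers were not taken as pairs. The depth limits mespaa and mespba, where counting alone gives a coefficient of variation of 9.6 to 12.2%.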
